A study of Homo sapiens with 8 samples.

Results

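The genes described here were MT-TM and MT-TI, which encode the mitochondrial tRNAs for methionine (mt-tRNA-Met) and isoleucine (mt-tRNA-Ile). They were taken by position, as every listed peak on the plus strand of mitochondrial DNA (GRCh38 chromosome M) that overlapped MT-TI (4263 to 4331) or MT-TM (4402 to 4469). This rule gave 14 of 4746 listed peaks, of which 330 lay on chromosome M, and 2 of the 22 mitochondrial tRNA genes. The RNA came from the human embryonic kidney line HEK-293, either wild type (WT) or knocked out for ALKBH1 (KO). Fragmented total RNA of every sample received an f5C-containing spike-in oligo and was reacted with the aldehyde-reactive probe (ARP), which attaches biotin to aldehydes. A part was sequenced without enrichment (input) and the rest after streptavidin pulldown (IP). This gave 4 groups of 2 libraries: WT input, WT IP, KO input and KO IP. According to the methods the KO lines were made with CRISPR/Cas9 in HEK293T cells from single sorted cells, so what separates a KO line from its parent besides ALKBH1 cannot be told apart from the loss of ALKBH1.

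5-Formylcytidine (f5C) carries an aldehyde on cytosine. In mt-tRNA-Met it is made at the wobble position, the first base of the anticodon: NSUN3 methylates the cytidine and ALKBH1, an Fe(II)- and α-ketoglutarate-dependent dioxygenase, oxidises the methyl group. The modified anticodon CAU lets mt-tRNA-Met read AUA as well as AUG in mitochondrial mRNA. The tRNA for isoleucine has a guanosine at the wobble position, which cannot carry f5C, and lies close by on the same strand. Mitochondrial tRNAs are cut out of long transcripts, and tRNA genes separate many of the protein-coding and rRNA genes. The library protocol records where a cDNA ended, at a stop of reverse transcription or at the end of the RNA fragment. By the convention of iCount a site is the base just upstream of the cDNA end.

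Both reference genes are shown as RNA-sense DNA, 5′ to 3′, because the peaks are placed on them below. Capitals mark the anticodon.
MT-TI: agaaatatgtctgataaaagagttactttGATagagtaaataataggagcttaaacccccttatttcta
MT-TM: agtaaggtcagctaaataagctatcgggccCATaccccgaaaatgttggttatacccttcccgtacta
MT-TI (ENSG00000210100.1) is 69 nt long and its wobble G is base 30 of the gene (chromosome M, position 4292). MT-TM (ENSG00000210112.1) is 68 nt long and its wobble C is base 31 (position 4432). The anticodon arm spans 4285 to 4301 in MT-TI and 4425 to 4441 in MT-TM. MT-TI has 9 cytosines and a G+C content of 29.0%, and MT-TM has 18 cytosines and 45.6%. MT-ND1, which encodes a subunit of complex I, ends at 4262, directly before MT-TI. MT-TQ, the glutamine tRNA gene, runs on the opposite strand from 4329 to 4400, and MT-ND2, another complex I gene, begins at 4470.

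The value of a peak is its number of unique cDNA molecules, and only peaks of at least 10 counts were listed. Summed over all listed peaks, the libraries held between 94218 and 98032 counts (WT input), 194494 and 285539 (KO input), 48380 and 65413 (WT IP), and 52137 and 53420 (KO IP). Levels are given as CPM, the count scaled to the summed listed counts of its library. On this scale the list minimum was worth up to 207 CPM (WT IP replicate 2), and anything below the minimum is not seen. These totals cover called peaks and are not the sequencing depth. No listed peak lay on ALKBH1, so the genotype labels were not checked by counts.

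MT-TM carried the largest listed peak of both WT IP libraries. WT IP replicate 1 had 9326 cDNA counts between 4400 and 4450, and replicate 2 had 8311 counts between the same ends. KO IP replicate 1 had 753 counts between 4404 and 4445, and replicate 2 had 866 counts between 4401 and 4445. The WT counts lay far above the KO counts. In the KO IP libraries the MT-TM peak ranked 16th and 12th among all listed peaks.

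The ends of the MT-TM peak differed between the WT and KO IPs. In both WT IP libraries the peak was 51 nt long, began 2 nt upstream of the gene and ended at base 49 of the tRNA. The wobble C lay 32 nt downstream of the peak start and 18 nt upstream of its end. In the KO IP libraries the peak was 42 nt and 45 nt long and ended at base 44 in both. There the wobble C lay 28 and 31 nt from the start and 13 nt from the end. The 3′ end was thus 5 nt further downstream in the WT IPs than in the KO IPs, and the peak spanned the whole anticodon arm in all 4 IP libraries. In the inputs of both genotypes the peak over this gene ended at 4444 or 4445. Only uniquely mapping genome reads were kept, and a copy of MT-TM on chromosome 1 differs from the gene only at base 55 (position 4456). A read within the gene that does not cover that base cannot be told from this copy by sequence. This limits which sites near the 3′ end of the gene can be listed in any library. Whether this limit or the larger counts of the WT IPs moved the called ends was not tested. Sites 3′ of the wobble base come from cDNAs that ended before reaching it, and sites 5′ of it from cDNAs that passed it. As the RNA was fragmented, a cDNA can also end where its fragment begins. The lists give no counts per base, so how the counts divide around the wobble C was not analysed here.

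MT-TI had small peaks in the IPs, and they were broken up in WT. WT IP replicate 1 had 45 counts between 4282 and 4284 and 16 counts at 4298 to 4299. WT IP replicate 2 had 39 counts between 4282 and 4288 and 17 counts between 4306 and 4309. Both KO IP libraries had 1 peak from 4281 to 4311, 31 nt long, with 186 counts in replicate 1 and 179 in replicate 2. None of the 4 WT IP peaks contained the wobble G. The first of them ended 8 and 4 nt upstream of it, and the second began 6 and 14 nt downstream. In the KO IPs the wobble G lay inside the peak, 11 nt from its start and 19 nt from its end.

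**Figure D1:**
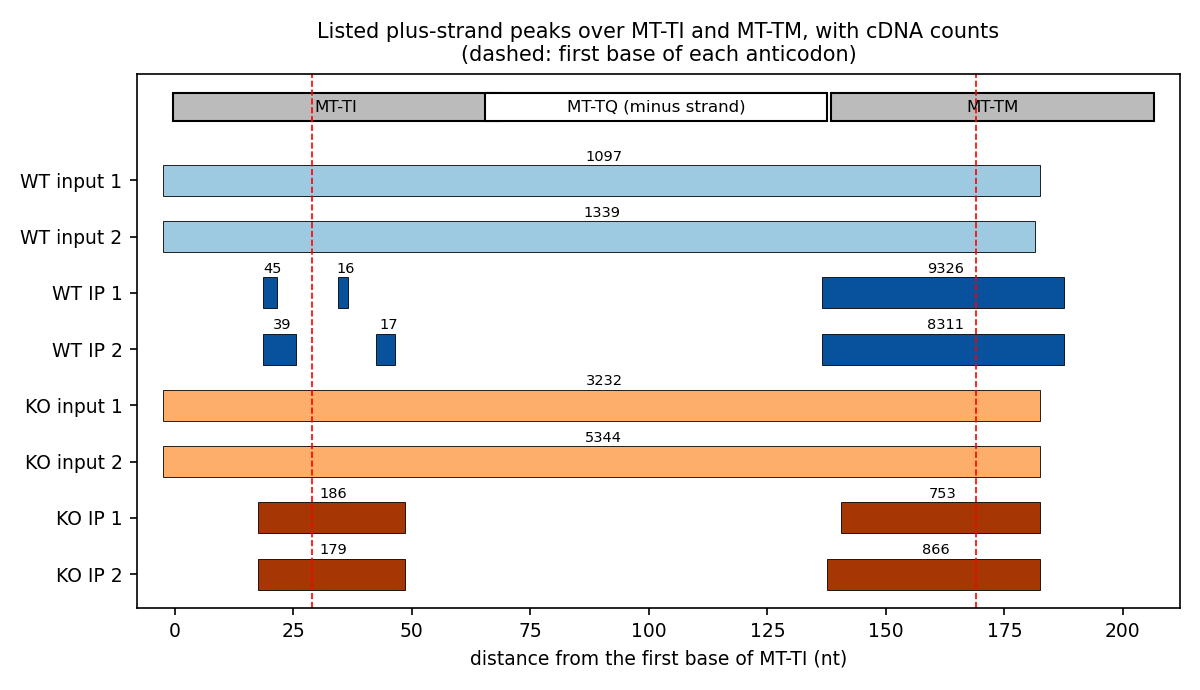
Listed plus-strand peaks in each of the 8 libraries (rows) against the distance in nt from the first base of MT-TI, with the cDNA count of each peak above its bar and the genes on top; dashed lines mark the first base of each anticodon. The 4 inputs have 1 peak over both genes, while the IPs have separate peaks, with 9326 and 8311 counts over MT-TM in the WT IPs against 753 and 866 in the KO IPs.

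Without pulldown the pair of genes lay in a single peak. It ran from 4261 to 4445 in 3 inputs and to 4444 in WT input replicate 2, with 1097 and 1339 counts for WT input and 3232 and 5344 for KO input. The peak took in the last 2 bases of MT-ND1, the whole of MT-TI, the 72 nt over which MT-TQ lies on the other strand, and MT-TM up to base 43 or 44. It stopped 12 or 13 nt past the wobble C of MT-TM, close to the end seen in the KO IPs. MT-ND2 was not reached in any library. How the input counts divide between MT-TI and MT-TM is not given by the lists. On the minus strand, over MT-TQ, small peaks were listed in WT input replicate 1 (11 counts), KO input replicate 1 (21 counts) and KO input replicate 2 (40 counts), and none in the IPs.

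As a share of all listed counts, MT-TM took 14.3% of WT IP replicate 1 (Wilson 95% limits 14.0 and 14.5) and 17.2% of replicate 2 (16.8 and 17.5). For KO IP the shares were 1.41% (1.31 and 1.51) and 1.66% (1.55 and 1.77). These intervals cover counting error only. The means were 15.7% ± 2.07 in WT and 1.54% ± 0.178 in KO (SD, n = 2 each). For MT-TI the WT IP shares were 0.0933% and 0.116%, against KO IP shares of 0.348% and 0.343%. Its means were 0.105% ± 0.0159 in WT and 0.346% ± 0.00344 in KO (SD, n = 2 each). By listed counts the order of the genotypes was therefore opposite for the 2 tRNAs. The listed length of MT-TI differed too, with 5 and 11 nt covered in the WT IPs against 31 nt in each KO IP. Per covered nt its mean was not lower in WT IP (146 ± 57.5 CPM) than in KO IP (112 ± 1.11 CPM, SD, n = 2 each). In the inputs, the peak over both genes took 1.27% ± 0.143 of all counts in WT cells and 1.77% ± 0.148 in KO cells (SD, n = 2 each).

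**Figure D2:**
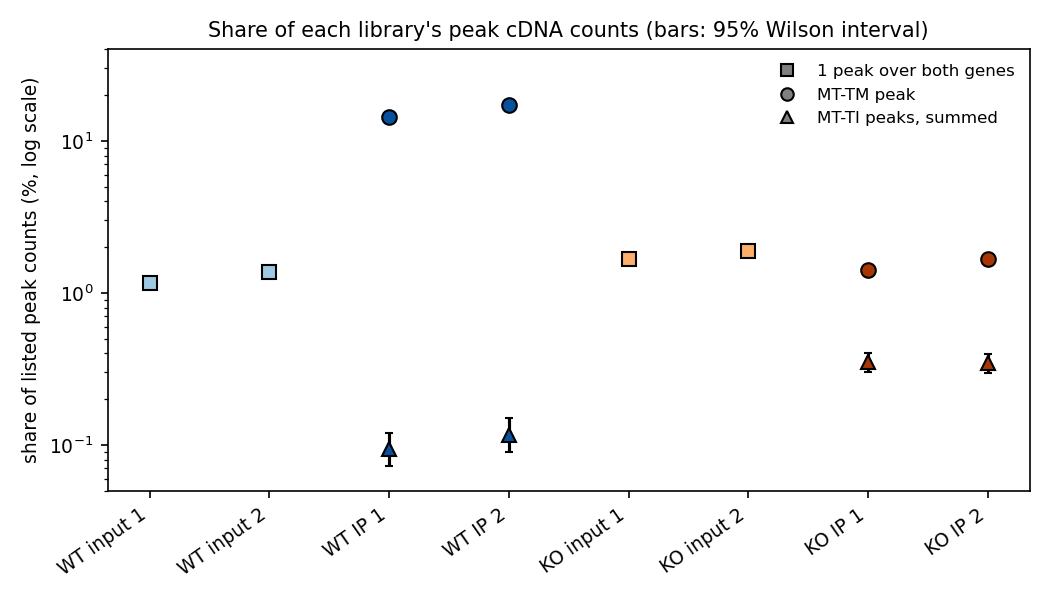
Share of each library's listed cDNA counts (percent, log axis) held by the joint peak over both genes in the inputs (squares) and by MT-TM (circles) and MT-TI (triangles) in the IPs; bars are 95% Wilson intervals, smaller than some symbols. MT-TM lies at 14.3% and 17.2% in the WT IPs, above every other point, whereas MT-TI lies lower in the WT IPs than in the KO IPs.

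The first comparison asked which tRNA differed between the WT and KO pulldowns. MT-TM was 12.2-fold higher in WT IP than in KO IP, with a log2 fold change of 3.60 (SE 0.134, 95% interval 3.30 to 3.91) and an adjusted p of 3.79e-07 in edgeR's quasi-likelihood test. MT-TI counts were lower in WT IP, at 0.358 times the KO level, with a log2 fold change of -1.48 (SE 0.237, interval -2.02 to -0.94) and an adjusted p of 0.00148 in the same test. Of 221 regions tested, 86 (38.9%) were called, 42 higher and 44 lower in WT IP. With the summed listed counts as library sizes the split was 28 higher and 56 lower and the median of all regions moved to -0.23. MT-TM was then at 3.36 and MT-TI at -1.73, both still called. P-values here rest on 2 libraries per group, which the authors describe as biological replicates. The test moderates the spread of each region with that of all regions tested, so it is not the spread of 2 libraries alone.

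The lower MT-TI count went with a shorter listed length. The WT IP peaks covered 5 and 11 nt of MT-TI, against 31 nt in each KO IP. Per covered nucleotide, MT-TI had 186.5 and 105.2 CPM in WT IP, against 112.3 and 110.8 CPM in KO IP. The means were 146 ± 57.5 and 112 ± 1.11 CPM per nt (SD, n = 2 each), a difference smaller than the spread between the WT replicates. For MT-TM, with 51 nt covered in WT and 42 and 45 nt in KO, the level per covered nt was 3082 ± 405 CPM in WT IP, against 352 ± 23.7 CPM in KO IP (SD, n = 2 each). The part of the peak calling in the MT-TI difference was not tested, since counts between the listed peaks are not in the lists.

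The ratio of MT-TM to MT-TI counts needs no scaling between libraries. It came to 152.9 and 148.4 for WT IP, against 4.05 and 4.84 for KO IP. The mean was 151 ± 3.16 in WT and 4.44 ± 0.558 in KO (SD, n = 2 each), a 33.9-fold difference between groups that did not overlap. A two-sided exact permutation test of 2 libraries against 2 gave p = 0.333, the smallest it allows. The uncertain listed length of MT-TI in WT IP enters this ratio too.

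The second question was how far pulldown raised the pair over the input in each genotype. In WT cells the joint region, with all peaks over both genes summed, had 12.3 and 12.7 times the input CPM in replicates 1 and 2. The log2 fold change was 3.58 (SE 0.169, interval 3.13 to 4.04, adjusted p = 0.000728 in edgeR), in a comparison where 49.8% of 243 regions were called. In KO cells the ratios were 1.06 and 1.07. The log2 fold change there was -0.0057 (SE 0.121, interval -0.30 to 0.28, adjusted p = 0.964 in edgeR), while 55.5% of 247 regions were called. Its upper end of 0.28 lies far below the WT value. These ratios compare unlike listed lengths, since the input peak of 184 or 185 nt includes the MT-TQ span and the IP peaks do not. Per covered nt, MT-TM had 352 ± 23.7 CPM in KO IP against 95.5 ± 8.02 CPM for the joint KO input peak, and 3082 ± 405 CPM in WT IP against 68.6 ± 7.99 CPM for the joint WT input peak (SD, n = 2 each). A lack of enrichment in KO is therefore not shown by the summed counts, and the level of MT-TM alone in the inputs is not known.

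MT-TM alone could be set against the whole input peak, which includes MT-TI and so makes its ratio a low estimate. It gave 12.2 and 12.6 in WT, and 0.848 and 0.888 in KO. The MT-TI peaks, set against the same input peak, reached 0.0801 and 0.0847 of it in WT, and 0.210 and 0.183 in KO. Nearly all IP counts of the joint region in WT therefore came from MT-TM, and in KO MT-TI supplied a larger part of a far smaller count.

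The difference between these pulldown ratios of summed counts was tested directly. The IP to input ratio of the region was 15.2-fold higher in WT than in KO, with an interaction of 3.92 on the log2 scale (SE 0.212, interval 3.43 to 4.41, adjusted p = 1.34e-05 in edgeR). Of 186 regions listed in all 8 libraries, 56 (30.1%) had a called interaction, 37 positive and 19 negative. The split was 33 and 32 with relative log expression scaling and 21 and 48 with summed listed counts as library sizes, where the median of all regions was -0.34. The value for the pair was 3.76 and 3.55 under these scalings, called in both.

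The inputs enter this interaction, and in them the joint peak was lower in WT. WT input had 11643 and 13659 CPM, and KO input 16617 and 18716 CPM. The log2 fold change of WT over KO input was -0.42 (SE 0.092, interval -0.68 to -0.16) with an adjusted p of 0.0387 in edgeR, where 35.9% of 409 regions were called. This call was not stable. The adjusted p rose to 0.0699 with relative log expression scaling and to between 0.0505 and 0.128 when any one of the 4 libraries was left out. In total RNA, fewer molecules of a tRNA and a shift in other RNAs cannot be told apart.

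The other 20 mitochondrial tRNA genes all had a listed peak in at least 1 library, and 10 of them in all 8. Between the IPs, 12 of them lay in 10 tested regions. None was called higher in WT IP, 6 regions were called lower and 4 were not called, with a median log2 fold change of -0.58 against 0.02 over all 221 regions. Over all regions 19.0% were called higher and 19.9% lower. The largest called changes were in MT-TP (-2.32), the joint MT-TC and MT-TY region (-0.93), MT-TF (-0.85), the joint MT-TH and MT-TS2 region (-0.64) and the MT-TL1 region (-0.46). The MT-TF region (576 to 706) and the MT-TP region (15905 to 16067) reached past their genes, which lie at 577 to 647 and 15956 to 16023. Their values are thus not values for the genes alone. Nor is the MT-TL1 value one for the gene alone, because the region joins it with sequence upstream. Peaks overlapping MT-TL1 itself held 79 and 37 counts in WT IP, while each KO IP had 1 peak over the gene and the upstream sequence, with 1753 and 1821 counts, so the part of the gene in it is unknown. These encode the tRNAs for proline, cysteine and tyrosine, phenylalanine, histidine and serine, and leucine. MT-TP rested on 11 and 13 counts in the WT IPs, just over the list minimum. In the WT IPs no peak was listed over MT-TC, and the joint region held MT-TY alone. Each KO IP peak there touched both genes. No region was called higher under any of 3 other scalings, and 6 or 7 were called lower. MT-TM stood alone among the tested mitochondrial tRNA regions in being called higher in WT IP, and MT-TI lay within the range of the others, from -2.32 to 0.02.

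**Figure D3:**
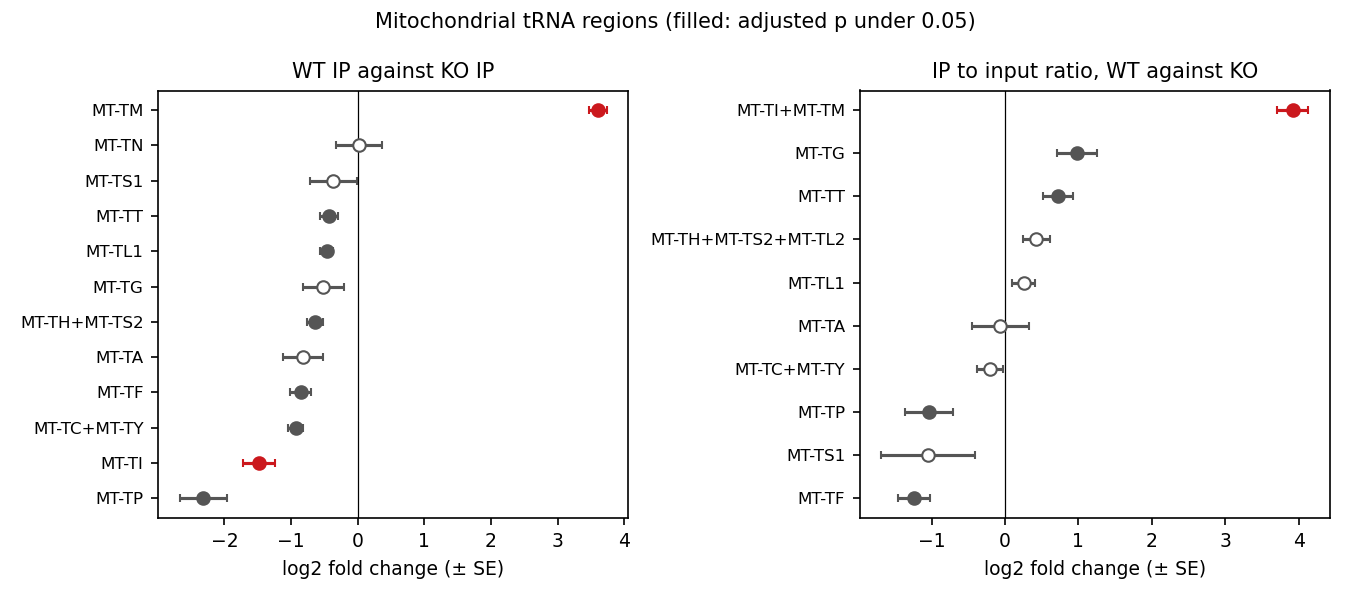
Log2 fold changes (points) with SE (bars) of the tested mitochondrial tRNA regions, for WT IP against KO IP (left) and for the IP to input ratio in WT against KO (right); filled points have an adjusted p under 0.05 in edgeR and red marks MT-TM and MT-TI. MT-TM at 3.60 and the joint region at 3.92 lie to the right of every other region, the highest of which are 0.02 and 0.98.

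In the pulldown comparisons other mitochondrial tRNAs moved both ways. In WT, 9 other regions were tested against the input: 3 were called higher, 3 lower and 3 were not called, where 23.9% of all 243 regions were called higher and 25.9% lower. The largest were MT-TP (-2.97), MT-TG (-2.13), MT-TF (-1.53), the joint MT-TH, MT-TS2 and MT-TL2 region (1.11) and MT-TA (0.95). MT-TG and MT-TA encode the tRNAs for glycine and alanine. No WT IP peak was listed over MT-TL2 or MT-TC, whose input counts come from peaks shared with neighbouring genes. The joint values are thus not values for these genes alone. The MT-TF and MT-TP regions reached past their genes here and in the interaction too. In KO, 5 of 12 were called higher and 2 lower, where 25.5% of all 247 regions were called higher and 30.0% lower. The largest were MT-TN, the asparagine tRNA gene (3.85), MT-TG (-2.77), MT-TP (-1.61), MT-TA (1.38) and MT-TC with MT-TY (1.23). MT-TN rested on 15 and 16 counts in the KO inputs, near the list minimum. For the interaction, 2 of 9 other regions were called higher, MT-TG (0.98) and MT-TT, the threonine tRNA gene (0.73). Another 2 were called lower, MT-TF (-1.24) and MT-TP (-1.03). Over all 186 regions, 19.9% were called higher and 10.2% lower. With summed listed counts as library sizes none of the 9 was called higher and 3 were called lower. Between the inputs, 1 of 13 other regions was higher in WT, MT-TF (0.72), and 7 were lower, where 14.9% of all 409 regions were called higher and 21.0% lower. None of the 13 was called without KO input replicate 1 or without KO input replicate 2. The largest called differences below 0 were in MT-TG (-1.31), MT-TP (-1.11), MT-TT (-0.97), MT-TR, the arginine tRNA gene (-0.89), and the joint MT-TH, MT-TS2 and MT-TL2 region (-0.89). The lower input level of MT-TI and MT-TM in WT thus lay among that of other mitochondrial tRNAs.

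Mitochondrial DNA has been copied into the nuclear genome many times, and reads of a mitochondrial tRNA can map to such a copy. A search of the reference found 29 nuclear copies of MT-TM and 30 of MT-TI with at least 60 nt aligned. On the sense strand, 9 MT-TM copies held a peak in WT IP replicate 1, with 977 counts in all (10.5% of the count at MT-TM itself), and 4 held one in replicate 2, with 378 counts (4.55%). No MT-TM copy had a sense peak in an input or a KO IP, and no MT-TI copy had one in any library. The list minimum of 10 counts equals between 1.15% and 1.33% of the MT-TM count in the KO IPs and between 0.187% and 0.912% of the input peak. Adding the copies to MT-TM raised its log2 fold change between the IPs from 3.60 to 3.70.

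The copies with peaks were the most similar ones. Of the 9 copies with at least 94% identity to MT-TM, 8 had a peak in a WT IP, against 1 of 8 copies between 91% and 94% and 0 of 12 below 91%. The 3 with the highest counts are shown on the strand of the tRNA, with capitals for the bases that differ from MT-TM.
chr1:629572-629639 (plus strand): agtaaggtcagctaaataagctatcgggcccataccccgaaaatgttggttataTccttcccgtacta
chr7:57186347-57186413 (plus strand): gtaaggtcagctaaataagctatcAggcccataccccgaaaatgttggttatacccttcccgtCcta
chr17:22525831-22525898 (plus strand): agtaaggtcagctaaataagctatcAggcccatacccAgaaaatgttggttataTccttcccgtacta
The chromosome 1 copy has 98.5% identity and 1 difference, C55T, counted from the first base of MT-TM. It held 385 and 143 counts in replicates 1 and 2 of WT IP, which is 4.13% and 1.72% of the MT-TM count. The chromosome 7 copy lies in an exon of the pseudogene MTND2P6, has 97.0% identity (G26A and A65C) and held 373 and 195 counts. The chromosome 17 copy (G26A, C38A and C55T) lies in no annotated gene and held 82 and 26 counts. All 3 keep the CAT anticodon. The remaining 6 copies held between 10 and 30 counts in a library, and of these only a copy on chromosome 7 (64111551 to 64111618, minus strand) was listed in both replicates, with 23 and 14 counts.

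The peaks in the 3 copies shown lay within the span of the WT IP peak on chromosome M. The chromosome 1 peaks ended at bases 37 and 33, those of the chromosome 7 copy shown at bases 44 and 41, and the chromosome 17 peaks at bases 33 and 36, and each contained the wobble C. Among the 6 other copies, the peak at a chromosome 17 copy (19603347 to 19603414, plus strand) stopped at base 17 and that at the chromosome 9 copy began at base 35, so neither contained it. The methods kept reads that map uniquely in the genome. For the chromosome 1 copy the only difference lies at base 55 (position 4456 of chromosome M), so a read that ends before it cannot be told from MT-TM by sequence. Which RNA gave the reads listed at the copies was not tested.

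**Figure D4:**
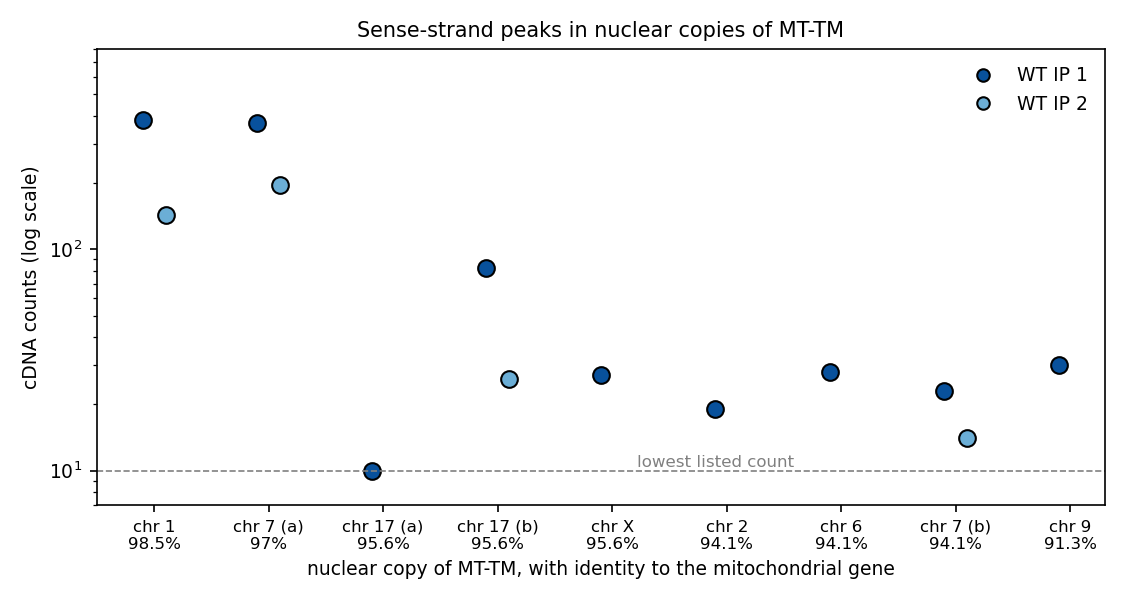
cDNA counts (log axis) of sense-strand peaks at each of the 9 nuclear copies of MT-TM with a listed peak, ordered by identity to MT-TM, in WT IP replicate 1 (dark) and replicate 2 (light); chr 17 (b) and chr 7 (a) are the copies whose sequences are given, and a missing point means no listed peak. The copies on chromosome 1 and chromosome 7 (a) have the highest counts, 385 and 373 in replicate 1, and no input or KO IP had a sense-strand peak at any of them.

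The regions whose levels ran most like the joint MT-TI and MT-TM region over the 8 libraries were nuclear tRNA loci. By Pearson's r of log2 CPM over these 8 libraries, which share their scaling, the highest were TRL-CAA1-2 (0.992), TRL-CAA1-1 (0.989), TRL-CAA3-1 (0.981), TRY-GTA2-1 (0.977) and TRR-TCT1-1 (0.976). TRL-CAA1-2, a leucine tRNA locus, had 240 and 190 counts for WT IP, 28 and 23 for KO IP, 33 and 35 for WT input, and 67 and 125 for KO input. It was chosen by r over these same libraries, so WT IP counts above those of the other groups follow largely from that choice. A list of 12 nuclear genes for modifying, processing or charging mitochondrial tRNA was also looked up, among them NSUN3, the nuclease ELAC2 and MARS2 and IARS2, which charge the tRNAs with methionine and isoleucine. None of the 12 had a listed peak on either strand in any library, so nothing could be measured for them at this depth.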

How the data were processed

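ARP pulldown and input libraries of WT and KO HEK-293 cells were analysed (8 libraries, 2 per group, grouped by the labels). According to the methods, the authors removed PCR duplicates with unique molecular identifiers, mapped reads to tRNA and rRNA and the rest to GRCh38 (STAR), kept uniquely mapping genome reads and called peaks with Paraclu at default parameters in each library. The deposited values are cDNA counts per peak, not normalized, in 2 lists per library. The members and gene lists were chosen with earlier results of these data known.

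Gene positions and IDs came from GENCODE and sequences from the GRCh38 FASTA. Within each comparison, same-strand peaks sharing 1 nt or more were merged, and regions with a peak in every library compared entered edgeR 4.0.16 under R 4.3.3 (TMM scaling, two-sided quasi-likelihood test, Benjamini-Hochberg threshold 0.05). This leaves out regions lost entirely in 1 group. A standard error is the log2 fold change divided by the square root of F, and intervals use the test's degrees of freedom. On simulated counts with changes of 4-fold 93.5% of changed regions were recovered between the IPs (221 regions, with 4.59% wrong calls) and 86.0% between WT IP and its input (243 regions, with 1.15% wrong calls). The simulation gave all regions the same spread and left out the list minimum and the merging of peaks, so these rates may be too favourable. Nuclear copies were found with blastn 2.17.0 (E-value 1e-5, word size 7). Alternatives covered scaling, DESeq2 1.42.0, unlisted regions set to 0, a mean count of at least 50, the replicate number as a factor and left-out libraries. Of these, 56 were planned and 28 were added after seeing the data. Totals cover called peaks, and the Wilson intervals of shares cover counting error only. The spike-in was not analysed here. Named were both genes, their neighbours where a peak touched them, at most 5 called mitochondrial tRNA regions per comparison by size, nuclear copies with a peak, and the 5 regions most like MT-TM. Python 3.11.15, numpy 2.4.6, scipy 1.17.1, matplotlib 3.10.9 and samtools 1.23.1 were used.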

Additional observations from a re-analysis of the deposited data

Results flagged for a closer look

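The IP to input ratio of the joint MT-TI and MT-TM region differed between WT and KO cells by 3.92 on the log2 scale in a test of the interaction itself (edgeR, adjusted p = 1.34e-05). Sense-strand peaks in nuclear copies of MT-TM enter no comparison above except as an added setting. They held 977 counts in WT IP replicate 1 and 378 in replicate 2, while the inputs and the KO IPs listed no sense-strand peak there.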

How the results depend on the processing

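Between the IPs, MT-TM kept its direction and its call in all 12 alternatives with a test (3.36 to 3.75, adjusted p up to 0.00889), and MT-TI in all 11 (-1.73 to -1.32, up to 0.0173). The joint region kept its call in 13 of 13 for the WT pulldown (3.40 to 3.88, up to 0.00978) and 17 of 17 for the interaction (3.53 to 4.19, up to 0.0018), and remained uncalled in 13 of 13 for the KO pulldown (-0.30 to 0.18, adjusted p from 0.0894 to 0.964). For MT-TI every alternative between the IPs used the same listed peaks, so none could show an effect of its listed length. Leaving out a whole replicate number left no residual spread and gave values only, 3.61 for the interaction without replicate 2. Over all left-out libraries the interaction ranged from 3.53 to 4.13. The input difference held in 4 of 11 alternatives and lost its call with relative log expression scaling (-0.36, adjusted p = 0.0699), unlisted regions set to 0 (-0.55, 0.0516), a mean count of at least 50 (-0.33, 0.0676) and each left-out library (-0.54 to -0.35, 0.0505 to 0.128). The cause was not tested. With the lone library of a group assumed to vary like the other group, called regions numbered 50 without KO IP replicate 1 and 53 without KO IP replicate 2, against 86 (50 to 98 over all left-out libraries). Between the inputs there were 147, and 52 without WT input replicate 1, 0 without KO input replicate 1 and 2 without KO input replicate 2 (0 to 120 over all left-out libraries). The interaction had 56, and 33 without WT IP replicate 2 or KO IP replicate 1 (33 to 67). Ranges were 98 to 106 for the WT pulldown (121) and 126 to 139 for the KO pulldown (137). With unlisted regions set to 0 and more regions tested, the counts were 205 (IPs), 341 (WT pulldown), 525 (KO pulldown), 377 (inputs) and 90 (interaction). DESeq2 called 69 regions between the inputs. Counts of MT-TM over MT-TI in WT IP were 210 with the largest peak per gene and 148 to 153 without a replicate, and with peaks of at least 5 nt inside the gene WT IP replicate 1 gave no value; in KO IP they were 4.05 to 4.84 without a replicate. The share of the pair in the genome list alone was 5.32% (WT input), 38.7% (WT IP), 6.55% (KO input) and 7.44% (KO IP). Among mitochondrial peaks it was 16.6%, 71.1%, 15.2% and 13.6%. Without a replicate the share of all counts ranged from 1.16% to 1.37%, 14.4% to 17.3%, 1.66% to 1.87% and 1.76% to 2.00% in the same order. Deviations of same-numbered libraries had r over regions from 0.227 to 0.535 in the 4 comparisons of 2 groups, and from -0.0529 (WT IP with KO input) to 0.494 over the 186 regions of the interaction. With only 2 numbers, and labels that do not say what a number marks, this does not pair them. The replicate block changed no call of the pair, with values of 3.60 (MT-TM) and -1.49 (MT-TI) between the IPs, 3.58, -0.0078 and -0.42 for the joint region in the WT pulldown, the KO pulldown and the inputs, and 3.93 for the interaction. Counts under 10 are not listed, so no absence was read from these lists.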
